A study of Homo sapiens with 10 samples.

Results

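The genes described here encode the nuclear-encoded protein subunits of the mitochondrial respiratory chain and ATP synthase. They were chosen by name: protein-coding genes whose symbols begin with NDUFA, NDUFB, NDUFC, NDUFS, NDUFV, UQCR, ATP5 or COX4 to COX8, together with SDHA, SDHB, SDHC, SDHD, CYC1 and CYCS, without the NDUFAF assembly factors, the inhibitor ATP5IF1 and pseudogenes. The rule used no measured value and took 83 of the 14054 genes in the count table. Of these, 36 belong to complex I, 4 to complex II, 9 to complex III, 15 to complex IV and 18 to complex V, and CYCS encodes cytochrome c. The number with enough counts to be tested was 79. NDUFC1, NDUFC2, NDUFA11 and COX6B2 fell below the filter, with 0 to 11, 0 to 5, 1 to 9 and 3 to 23 counts per library. A further 8 names that the rule would take were not analysed here, NDUFA13, COX4I2, COX6A2, COX7B2, COX8C, UQCRHL and the readthrough genes ATP5MF-PTCD1 and NDUFC2-KCTD14.

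RNA came from MRC5, a human fetal lung fibroblast line with no engineered change named in the labels, in 10 libraries. In 5 of them the fibroblasts had received culture medium taken from A549 cells under mechanical stretch (stretch medium; libraries 2, 4, 6, 8 and 10), and in the other 5 medium from A549 cells kept without stretch (static medium; libraries 1, 3, 5, 7 and 9). A549 cells derive from a human lung adenocarcinoma and serve as a model of alveolar epithelial cells. The exposure lasted 24 h by the sample descriptions and 6 h by the design text, so its length is not settled. The series asks how stretched epithelial cells act on fibroblasts through what they release. Both media came from A549 cells, and fibroblasts in unconditioned medium were not analysed here.

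Complexes I to IV pass electrons from NADH and succinate to oxygen through ubiquinone and cytochrome c, and complexes I, III and IV use the energy released to pump protons across the inner mitochondrial membrane. Complex V, the ATP synthase, lets the protons back and makes ATP. Most subunits are encoded in the nucleus and imported, while a small core set is encoded in mitochondrial DNA, and the nuclear transcription factors NRF1 and GABPA (an ETS family protein) are known regulators of many of the nuclear genes.

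Several sequences bear on the values below. The first pair shows UQCRFS1, which encodes the Rieske iron-sulfur protein of complex III, beside its processed pseudogene UQCRFS1P1, because reads of one could be counted as the other. The coding sequence of UQCRFS1 was aligned with the whole transcript of UQCRFS1P1 (both GENCODE 29). Within 813 aligned bases, 804 (98.9%) were the same. The 90 bases printed are the stretch with the most differences, 3, and capitals mark the differing bases.
UQCRFS1: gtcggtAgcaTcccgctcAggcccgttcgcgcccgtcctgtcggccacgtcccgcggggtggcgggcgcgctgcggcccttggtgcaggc
UQCRFS1P1: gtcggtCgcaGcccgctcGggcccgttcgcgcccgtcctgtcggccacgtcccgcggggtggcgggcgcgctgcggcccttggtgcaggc
Bases 6 to 95 of the UQCRFS1 coding sequence (chromosome 19) and bases 8 to 97 of the UQCRFS1P1 transcript (chromosome 22) are shown.

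ATP5MC1, ATP5MC2 and ATP5MC3 encode the same mature protein, subunit c of the ATP synthase ring, behind different import sequences. They are printed because, within the part that codes for the mature protein, only changes that leave the protein the same tell their reads apart. The last 77 codons (231 bases) of the GENCODE 29 coding sequences encode the same residues in all 3 genes. They were chosen for that, and the start of the mature protein was not marked. At least 1 of the 3 genes differed at 57 of these bases. ATP5MC1 and ATP5MC2 shared 88.3% of these bases, and ATP5MC3 shared 80.1% with each of them. A stretch of 90 bases follows, with the 23 differing positions in capitals.
ATP5MC1: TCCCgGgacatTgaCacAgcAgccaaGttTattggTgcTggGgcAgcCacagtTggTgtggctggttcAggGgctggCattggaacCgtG
ATP5MC2: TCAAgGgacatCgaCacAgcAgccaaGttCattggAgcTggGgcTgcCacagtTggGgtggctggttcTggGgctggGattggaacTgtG
ATP5MC3: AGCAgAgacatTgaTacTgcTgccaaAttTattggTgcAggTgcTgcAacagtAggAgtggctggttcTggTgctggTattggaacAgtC

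Promoters were searched for motifs of regulators of these genes. RefSeq sequence (GRCh38.p14) from 250 bases before the transcript start was matched to 66 of the 83 genes. The NRF1 motif, the letters GCGCA and GCGC with any 1 base between them, was present on either strand in 14 of 66 (21.2%), against 7.65% of 15843 protein-coding promoters of the same length. The ETS motif CCGGAAG, the core bound by GABPA, was present in 16 of 66 (24.2%), against 11.8% of all promoters. The YY1 motif AAGATGGCG was present in 1 of 66 (1.52%, against 0.75%), the GC box GGGCGG in 37 of 66 (56.1%, against 56.0%) and TATAAA in 6 of 66 (9.09%, against 9.23%). At least 1 NRF1 or ETS motif was present in 28 of the 66. These are matches of letters, not measured binding. The 130 bases before the start are printed for the 6 genes that were named by their p-values and hold an NRF1 or ETS motif, which is in capitals.
ATP5F1C: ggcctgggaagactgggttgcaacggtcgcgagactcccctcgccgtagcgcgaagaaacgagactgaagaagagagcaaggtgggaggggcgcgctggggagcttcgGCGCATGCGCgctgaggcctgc
UQCRFS1: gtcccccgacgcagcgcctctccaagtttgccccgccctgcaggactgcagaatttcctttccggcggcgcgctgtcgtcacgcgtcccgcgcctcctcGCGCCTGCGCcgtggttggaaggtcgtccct
UQCRH: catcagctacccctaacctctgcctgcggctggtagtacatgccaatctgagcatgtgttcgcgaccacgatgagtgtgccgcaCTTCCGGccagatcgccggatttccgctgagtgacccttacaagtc
SDHA: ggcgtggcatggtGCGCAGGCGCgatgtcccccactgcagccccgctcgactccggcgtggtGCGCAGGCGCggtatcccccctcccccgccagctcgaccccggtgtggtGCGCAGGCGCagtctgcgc
SDHB: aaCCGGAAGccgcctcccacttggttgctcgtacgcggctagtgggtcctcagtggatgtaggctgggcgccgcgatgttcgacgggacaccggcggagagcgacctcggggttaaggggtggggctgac
COX6B1: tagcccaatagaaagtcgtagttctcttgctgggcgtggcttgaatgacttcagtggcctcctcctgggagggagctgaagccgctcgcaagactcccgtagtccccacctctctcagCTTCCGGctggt
The windows are chr10:7788047-7788176 for ATP5F1C (plus strand), chr19:29213152-29213281 for UQCRFS1 (minus strand), chr1:46303568-46303697 for UQCRH (plus strand), chr5:218190-218319 for SDHA (plus strand), chr1:17054033-17054162 for SDHB (minus strand) and chr19:35648193-35648322 for COX6B1 (plus strand).

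The libraries held 5948227 ± 1544115 counts with stretch medium and 6675921 ± 1494760 with static medium (SD, n = 5 each), from 4231653 in stretch 2 to 8455073 in static 3. The 83 genes took 1.19% to 1.32% of counts with stretch medium and 1.24% to 1.43% with static medium, so the groups overlapped in this share. Values are given as CPM, that is, library totals made equal after trimmed-mean normalization, and a floor of 3 counts corresponds on this scale to 0.353 to 0.678 CPM. All 14 fibroblast markers were in the table, summing to 16029 to 20127 CPM with stretch medium and 17709 to 19541 CPM with static medium. Of 14 markers of A549 and epithelium, 8 were in the table, summing to 90.8 to 107 CPM with stretch medium and 84.6 to 120 CPM with static medium. Of 5 blood cell markers, CD14 and CD68 were in the table, summing to 180.4 to 232 CPM with stretch medium and 193 to 208 CPM with static medium, and the other 3 were not analysed here. Of 4 endothelial markers, 3 were in the table, summing to 5.36 to 9.03 CPM with stretch medium and 2.21 to 9.36 CPM with static medium. Whether the 5 libraries of each medium are separate cultures is not stated in the labels, so their spread may be technical.

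No respiratory chain gene passed the test between the 2 media. In bulk RNA, less of a transcript per cell and fewer cells holding it cannot be told apart. Of the 79 tested, 0 had an adjusted p under 0.05 in edgeR's quasi-likelihood test with Benjamini-Hochberg adjustment, beside 0 of all 10968 genes tested (0.0%), and the smallest adjusted p was 0.128, for ATP5F1C. The fitted changes were small: log2 fold changes (stretch over static medium) ran from -0.49 for NDUFA2 to 0.69 for NDUFV3, and NDUFV3 alone was past 0.5 in size. The 95% interval of the log2 fold change lay within ±1 for 76 of the 79 genes and within ±0.5 for 47. More of the genes lay below 0 than above: 53 of 79 (67.1%) against 5478 of 10968 (49.9%) over all genes, and the median log2 fold change was -0.071 against 0.00035. With an unadjusted p under 0.05, 11 genes were lower with stretch medium (13.9%, background 8.37%) and 3 were higher (3.80%, background 8.08%), which makes 14 (17.7%, background 16.4%).

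The lower count rested in part on 2 libraries. It was 5 of 79 (6.33%, background 6.26%) without static 7 and 7 of 79 (8.86%, background 6.68%) without stretch 2. The count of higher genes was 5 (6.33%, background 9.10%) without stretch 4 and 1 (1.27%, background 6.33%) without stretch 6. In no gene of the 79 did the groups keep apart entirely, while 409 of all 10968 genes (3.73%) did, 218 lower (1.99%) and 191 higher (1.74%). By DESeq2, 1 of the 79 had an adjusted p under 0.05, ATP5F1C, and 3 of the 79 were given no adjusted p. Over all genes it was 275 of the 9690 with an adjusted p (2.84%), of which 150 were lower (1.55%).

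**Figure D1:**
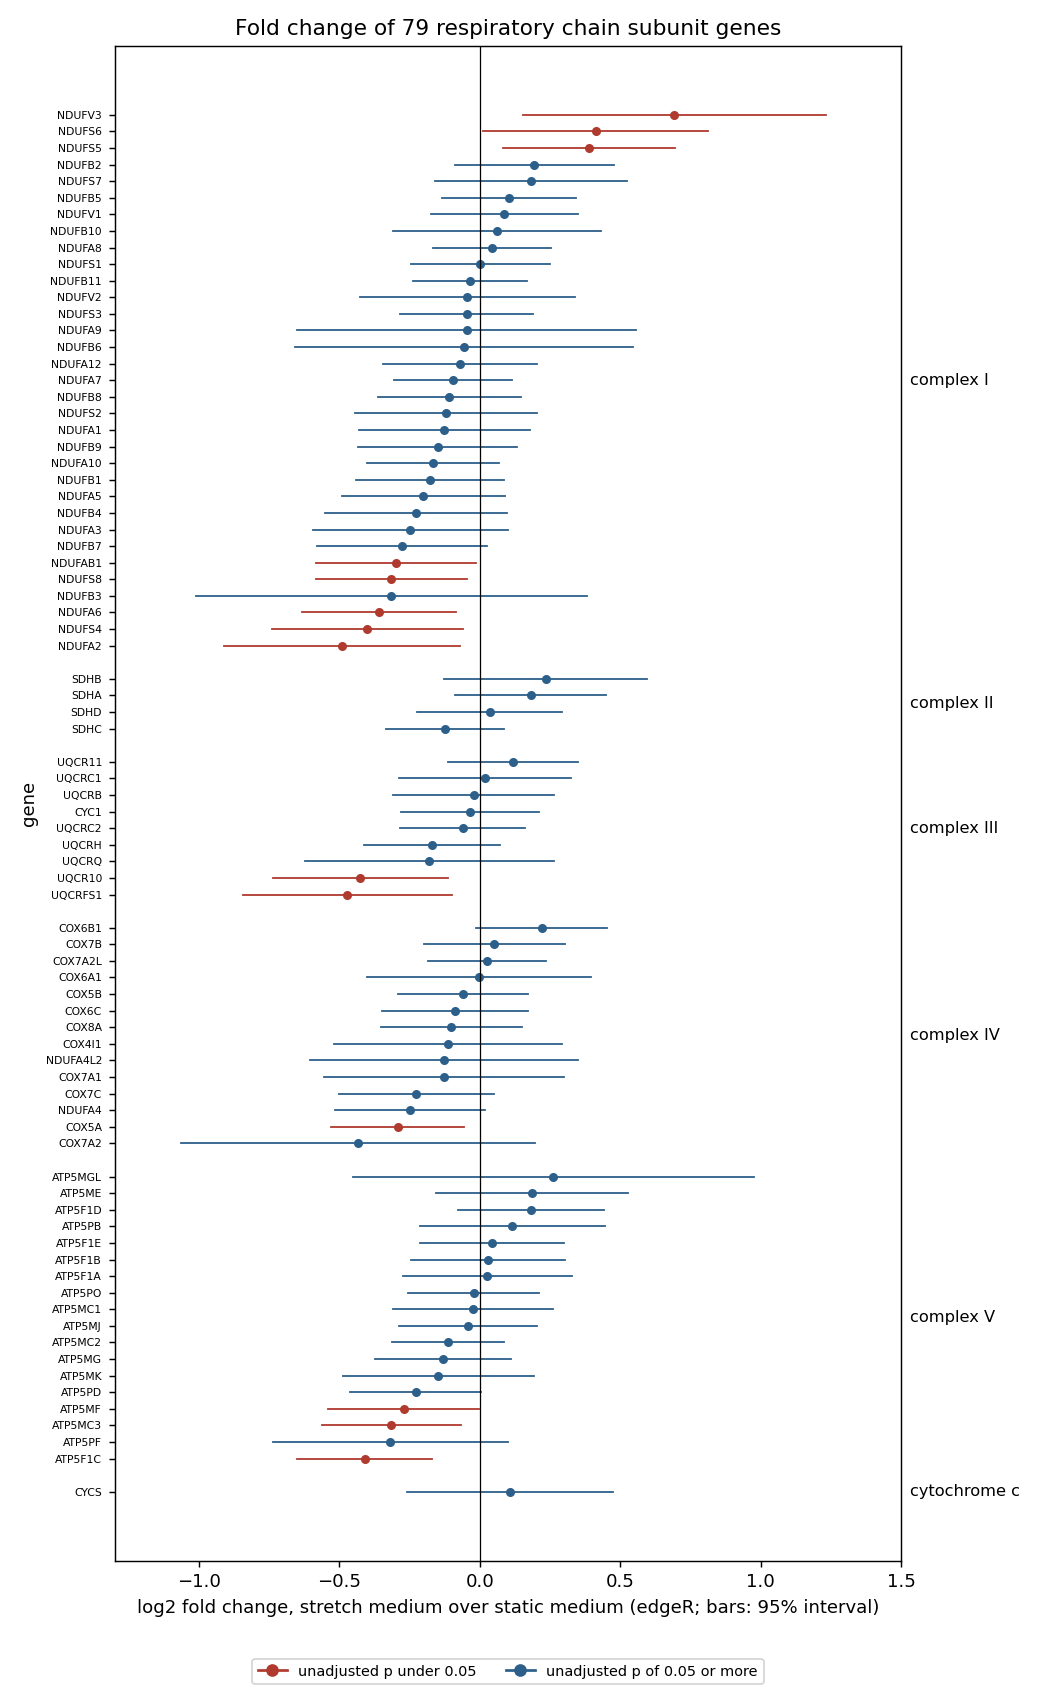
Log2 fold change (stretch over static medium, x axis) of the 79 tested subunit genes, grouped by complex down the page, with bars for the 95% interval. Most points lie slightly left of 0, 65 of the 79 intervals include 0, and NDUFV3 is the point farthest to the right at 0.69.

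The mean level of the genes varied between libraries within each group. Each gene's log2 CPM was centred on its mean over the 10 libraries, and the mean over the 79 genes was taken per library. It was -0.171, -0.092, 0.020, 0.046 and 0.001 in stretch 2, 4, 6, 8 and 10, against 0.060, 0.018, -0.040, 0.117 and 0.040 in static 1, 3, 5, 7 and 9. Stretch 2 and 4 lay below every static library, static 7 lay above all others, and the other libraries of the groups overlapped. Stretch 2 gave the lowest value of 19 of the 79 genes (24.1%, all genes 13.1%). Static 7 gave the highest value of 22 genes (27.8%, all genes 19.2%), and stretch 6 gave the highest value of 18 genes (22.8%, all genes 14.7%).

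**Figure D2:**
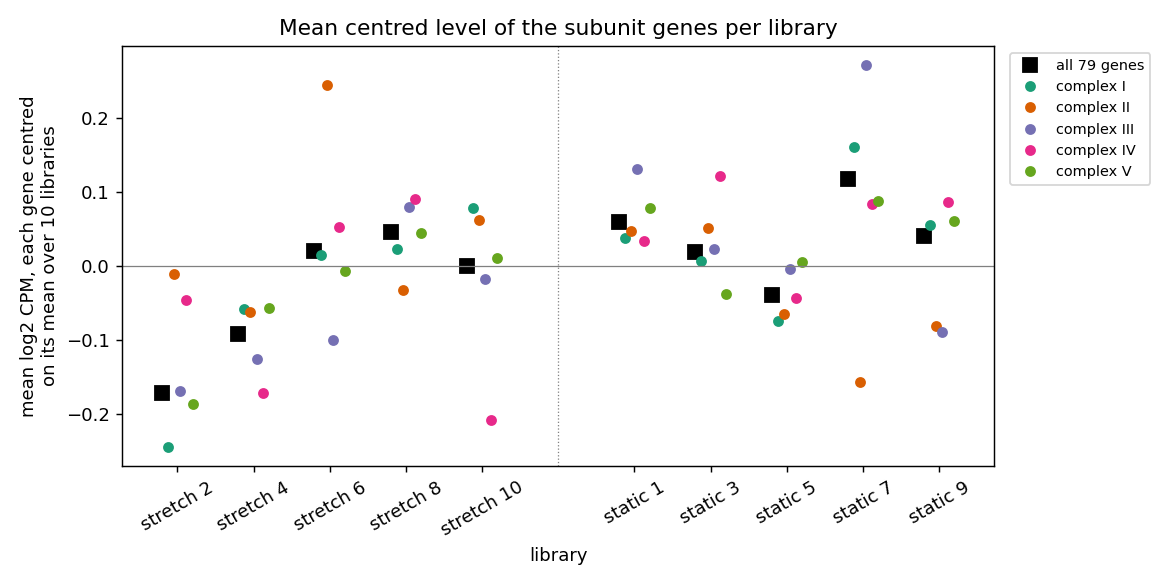
Mean centred log2 CPM (y axis) of the tested subunit genes in each of the 10 libraries (x axis, stretch libraries left of static libraries). Points show each complex and all 79 genes. Stretch 2 has the lowest mean over all 79 genes, at -0.171, and static 7 the highest, at 0.117.

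Complex I, which takes electrons from NADH, had 23 of its 33 tested genes below 0 and the median log2 fold change was -0.096. At an unadjusted p under 0.05, 5 were lower (15.2%, all genes 8.37%) and 3 higher (9.09%, all genes 8.08%). None passed after adjustment. The 7 tested genes of the catalytic core, which carry the flavin and the iron-sulfur clusters, had a median of -0.044. The 26 accessory genes had a median of -0.12. Core and accessory groups were set after seeing the data and were not tested against each other. Values below are listed in the library order 2, 4, 6, 8 and 10 for stretch medium and 1, 3, 5, 7 and 9 for static medium, and ± after a log2 fold change is its standard error.

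Within the core, NDUFS8, an iron-sulfur subunit on the way to ubiquinone (ENSG00000110717; chr11:68030617-68036644), had 98.0, 109, 99.4, 99.4 and 87.3 CPM with stretch medium, against 111, 95.9, 135, 115 and 157 CPM with static medium. Its log2 fold change was -0.31 ± 0.13 (adjusted p = 0.241). Static 1, 5, 7 and 9 were above all stretch libraries and static 3 was among them.

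NDUFA6 and NDUFAB1 touch in the assembled complex, NDUFAB1 being the mitochondrial acyl carrier protein and NDUFA6 a small protein of the LYR family that binds it. NDUFA6 (ENSG00000184983; chr22:42085525-42090955) had 111, 137, 158, 178 and 137 CPM with stretch medium, against 168, 159, 183, 198 and 219 CPM with static medium. NDUFAB1 (ENSG00000004779; chr16:23581002-23596356) had 208, 278, 201, 233 and 276 CPM with stretch medium, against 282, 256, 272, 392 and 267 CPM with static medium. In NDUFA6, 4 of 5 stretch libraries were below all static ones, with stretch 8 above 2 of them. In NDUFAB1 stretch 4 and 10 lay inside the static range, and static 7 stood above the rest. Log2 fold changes were -0.36 ± 0.13 for NDUFA6 (adjusted p = 0.192) and -0.30 ± 0.13 for NDUFAB1 (adjusted p = 0.283).

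NDUFS4 and NDUFA2 are accessory proteins of the matrix arm, where NADH is oxidised, and loss of NDUFS4 is a known cause of Leigh syndrome. NDUFS4 (ENSG00000164258; chr5:53560633-53683340) had 24.2, 35.9, 21.0, 35.2 and 30.5 CPM with stretch medium, against 33.8, 37.4, 40.0, 47.9 and 34.4 CPM with static medium. NDUFA2 (ENSG00000131495; chr5:140638740-140647785) had 9.04, 19.2, 11.3, 16.6 and 19.1 CPM with stretch medium, against 19.5, 20.2, 17.9, 27.5 and 20.4 CPM with static medium. The groups overlapped in both: 2 stretch libraries reached the static range in each. Log2 fold changes were -0.40 ± 0.16 for NDUFS4 (adjusted p = 0.238) and -0.49 ± 0.20 for NDUFA2 (adjusted p = 0.242). NDUFA2 overlaps TMCO6 and IK on the opposite strand, and no source used here says whether strand was used in counting.

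The genes higher with stretch medium at an unadjusted p under 0.05 were NDUFV3, NDUFS5 and NDUFS6, all accessory subunits of complex I. NDUFV3, at the tip of the NADH-oxidising arm (ENSG00000160194; chr21:42879644-42913304), had 30.7, 48.0, 49.3, 45.1 and 27.3 CPM with stretch medium, against 14.0, 20.0, 37.1, 16.4 and 36.8 CPM with static medium. It averaged 40.1 ± 10.3 CPM with stretch medium and 24.9 ± 11.2 CPM with static medium (SD, n = 5 each). Stretch 4, 6 and 8 were above every static library, while stretch 2 and 10 lay below static 5 and 9. The log2 fold change was 0.69 ± 0.26 (95% interval 0.15 to 1.23, adjusted p = 0.204).

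NDUFS5, which sits on the intermembrane-space face of the membrane arm (ENSG00000168653; chr1:39026318-39034636), had 196, 176, 281, 237 and 194 CPM with stretch medium, against 205, 193, 141, 145 and 145 CPM with static medium. Static 5, 7 and 9 lay below every stretch library, and static 1 and 3 lay inside the stretch range. Its log2 fold change was 0.39 ± 0.14 (adjusted p = 0.207). NDUFS6, a zinc-binding subunit named here after its values were seen, had 41.8, 23.2, 50.1, 44.1 and 40.5 CPM with stretch medium, against 29.8, 41.4, 29.6, 25.9 and 23.3 CPM with static medium. Stretch 4 had the lowest NDUFS6 value of all libraries although the other stretch libraries had 4 of the 5 highest, and the log2 fold change was 0.41 ± 0.19 (adjusted p = 0.292). NDUFB8, of the membrane arm, had 282, 328, 324, 372 and 339 CPM with stretch medium, against 368, 356, 278, 441 and 332 CPM with static medium, overlapping throughout (log2 fold change -0.11 ± 0.12). Of the 31-base words of NDUFB8, 66.4% occur in other annotated genes.

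**Figure D3:**
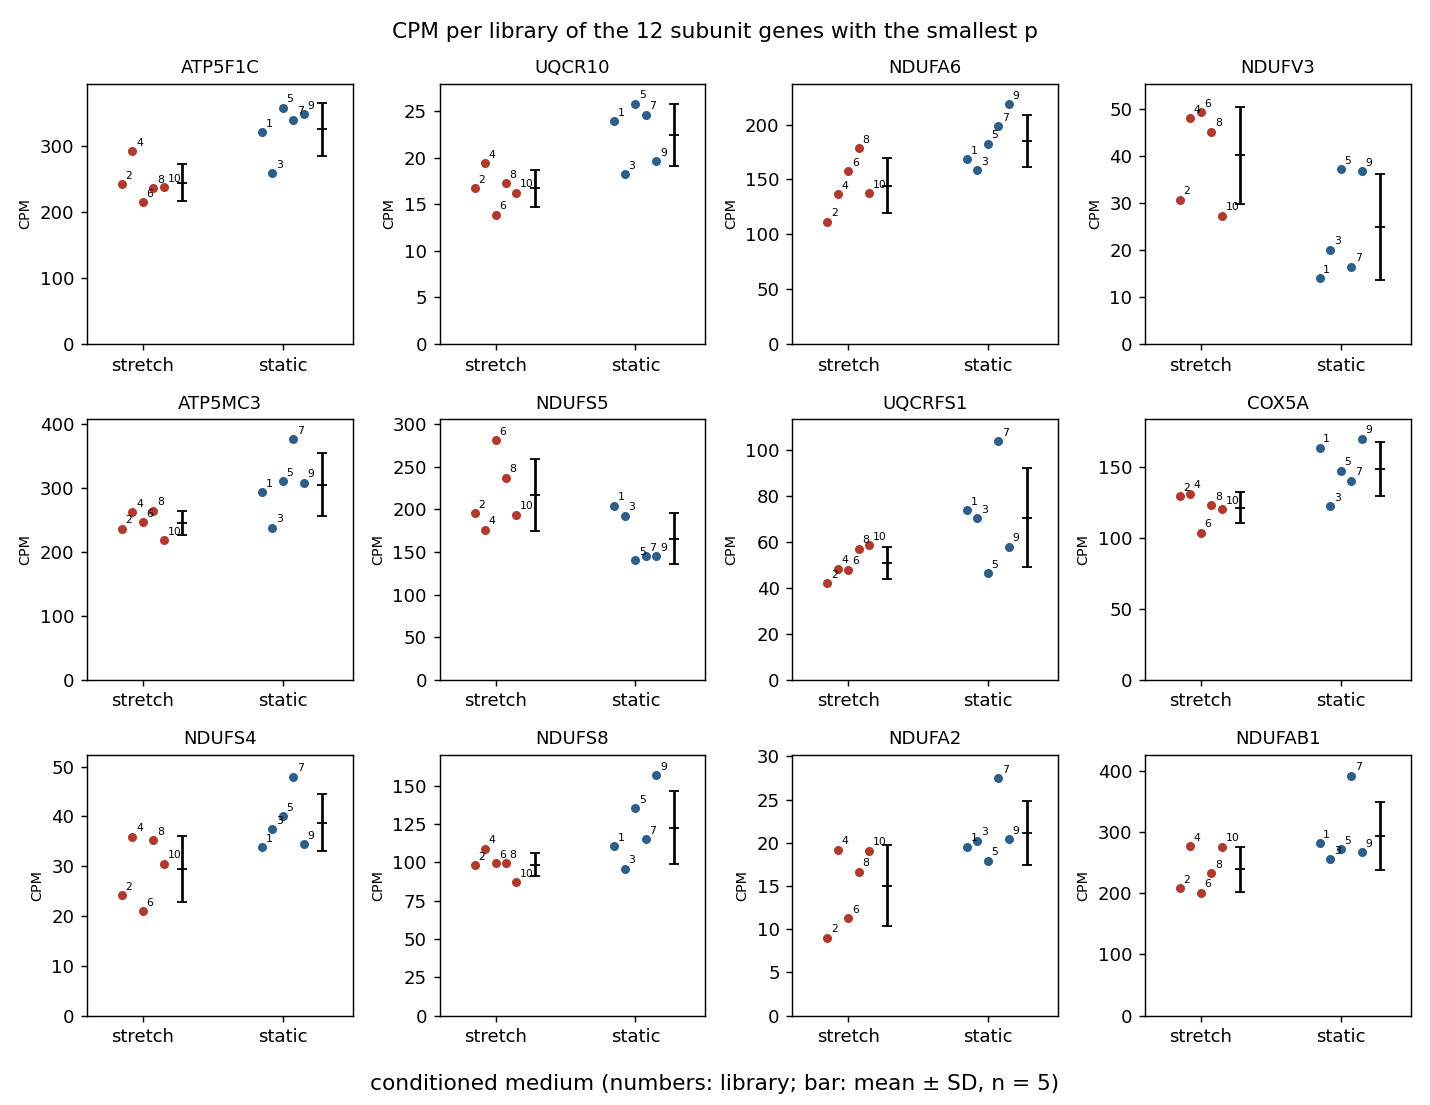
CPM per library (y axis) of the 12 subunit genes with the smallest p, stretch libraries left of static libraries in each panel, with numbers for libraries and bars for the mean ± SD (n = 5). In every panel the groups overlap; NDUFV3 and NDUFS5 are the panels in which the stretch libraries have the higher mean.

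Complex II, succinate dehydrogenase, is also an enzyme of the citric acid cycle and has no subunit encoded in mitochondrial DNA. Of its 4 genes 1 lay below 0, the median log2 fold change was 0.11, and none had an unadjusted p under 0.05. SDHA, the flavoprotein that oxidises succinate (ENSG00000073578; chr5:218241-256700), had 176, 139, 184, 152 and 169 CPM with stretch medium, against 170.3, 158, 128, 110.5 and 158 CPM with static medium. SDHB, the iron-sulfur subunit (ENSG00000117118; chr1:17018722-17054170), had 30.5, 29.6, 52.3, 33.1 and 35.9 CPM with stretch medium, against 36.0, 38.1, 26.5, 29.1 and 25.1 CPM with static medium. SDHC, a membrane anchor that binds ubiquinone with SDHD, had 119, 117, 110.1, 119 and 130.4 CPM with stretch medium, against 137, 124, 135, 112 and 140.2 CPM with static medium. Stretch 6 was the highest library for SDHA and SDHB and the lowest for SDHC, and the groups overlapped in all 3. Log2 fold changes were 0.18 ± 0.13 for SDHA (adjusted p = 0.493), 0.23 ± 0.17 for SDHB (adjusted p = 0.510) and -0.12 ± 0.10 for SDHC (adjusted p = 0.562). The SDHB value was 0.063 without stretch 6, and the median of the 4 genes was 0.023 without it. SDHA shares 39.0% of its 31-base words with other genes, among them its copies.

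Complex III passes electrons from ubiquinol to cytochrome c. Of 9 genes 7 lay below 0 and the median log2 fold change was -0.062. At an unadjusted p under 0.05, 2 were lower, UQCR10 and UQCRFS1 (22.2%, all genes 8.37%). UQCR10, a small subunit of the membrane part (ENSG00000184076; chr22:29767369-29770413), had 16.7, 19.4, 13.9, 17.3 and 16.3 CPM with stretch medium, against 23.9, 18.2, 25.8, 24.6 and 19.6 CPM with static medium. Stretch 2, 6, 8 and 10 were below every static library, and stretch 4 was above static 3. Means were 16.7 ± 1.99 CPM with stretch medium and 22.4 ± 3.30 CPM with static medium (SD, n = 5 each), a log2 fold change of -0.43 ± 0.15 (adjusted p = 0.176).

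UQCRFS1 (ENSG00000169021; chr19:29205321-29213541) had 42.0, 48.4, 47.9, 57.1 and 58.6 CPM with stretch medium, against 73.9, 70.3, 46.5, 104 and 58.0 CPM with static medium. Static 1, 3 and 7 were above all stretch libraries and static 5 was below 4 of them. The log2 fold change was -0.47 ± 0.18 (adjusted p = 0.209). The pseudogene printed beside it above, UQCRFS1P1, had 142, 124, 101, 116 and 115 CPM with stretch medium, against 90.2, 90.1, 132, 92.5 and 114 CPM with static medium. Its own log2 fold change was 0.20 ± 0.13 (adjusted p = 0.454), opposite in sign to that of UQCRFS1. Static 5, the lowest static library for UQCRFS1, was the highest static library for UQCRFS1P1. Added together, the 2 rows gave 170 ± 13.1 CPM with stretch medium and 174 ± 14.2 CPM with static medium (SD, n = 5 each). With the pseudogene's counts added to the gene, the log2 fold change was -0.036 (adjusted p = 0.889, the highest of 19 alternatives, whose lowest was 0.132). Of the 31-base words of the UQCRFS1 transcripts, 21.2% occur in other genes, with 17.0% in UQCRFS1P1. Amplicon positions were not used, so these shares do not show whether the counted reads are ambiguous. The division of reads between the 2 rows is uncertain and was not tested.

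**Figure D4:**
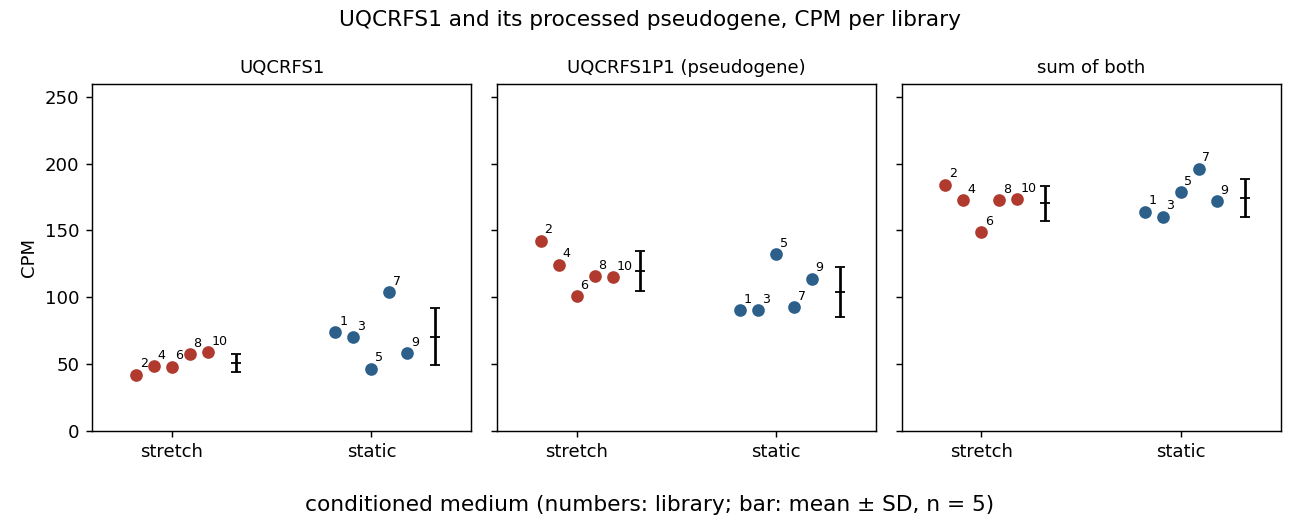
CPM per library (y axis) of UQCRFS1, of UQCRFS1P1 and of their sum, stretch libraries left of static libraries, with bars for the mean ± SD (n = 5). UQCRFS1 averages 50.8 CPM with stretch medium and 70.5 CPM with static medium, while the sums average 170 and 174 CPM and overlap.

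UQCRH, the acidic hinge protein that helps cytochrome c dock (ENSG00000173660; chr1:46303631-46316776), had 115, 132, 116, 132 and 123 CPM with stretch medium, against 136, 129.6, 135, 176 and 118 CPM with static medium. UQCRQ, a small ubiquinone-side subunit, had 296, 502, 399, 557 and 684 CPM with stretch medium, against 537, 602, 486, 789 and 346 CPM with static medium. The groups overlapped in both, with static 7 the highest library. Log2 fold changes were -0.17 ± 0.11 for UQCRH (adjusted p = 0.474) and -0.18 ± 0.21 for UQCRQ (adjusted p = 0.704). Of the 31-base words of UQCRH, 43.9% occur in other genes, chiefly UQCRHL, and UQCRQ overlaps GDF9 on the opposite strand.

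Cytochrome c itself, encoded by CYCS, had 107, 68.0, 129, 116 and 104 CPM with stretch medium, against 118, 87.3, 106, 64.0 and 112 CPM with static medium. The lowest libraries were static 7 and stretch 4, one in each group, and the log2 fold change was 0.11 ± 0.17 (adjusted p = 0.803).

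Complex IV, cytochrome c oxidase, reduces oxygen to water. Of 14 tested genes 11 lay below 0 and the median log2 fold change was -0.11. At an unadjusted p under 0.05, COX5A alone was lower (7.14%, all genes 8.37%) and none was higher. COX5A, a matrix-side subunit (ENSG00000178741; chr15:74919791-74938168), had 129, 131, 104, 123 and 120.2 CPM with stretch medium, against 164, 123, 147, 141 and 170.0 CPM with static medium. Static 1, 5, 7 and 9 were above all stretch libraries, and static 3 lay among the stretch values. The log2 fold change was -0.29 ± 0.11 (adjusted p = 0.218). COX6B1, on the intermembrane-space side, had 476, 423, 583, 522 and 496 CPM with stretch medium, against 477, 464, 362, 446 and 398 CPM with static medium. Stretch 6, 8 and 10 were above every static library while stretch 2 and 4 were not, and the log2 fold change was 0.22 ± 0.11 (adjusted p = 0.333).

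Several complex IV subunits exist in more than 1 isoform, and NDUFA4 has a paralogue, NDUFA4L2, known to be induced by hypoxia. NDUFA4, once assigned to complex I, had 167, 237, 146, 209 and 186 CPM with stretch medium, against 226, 252, 201, 237 and 207 CPM with static medium. NDUFA4L2 had 5.20, 3.65, 6.18, 4.51 and 4.61 CPM with stretch medium, against 6.80, 6.12, 5.06, 3.39 and 5.35 CPM with static medium. Both overlapped between media, with log2 fold changes of -0.25 ± 0.13 for NDUFA4 (adjusted p = 0.339) and -0.13 ± 0.23 for NDUFA4L2 (adjusted p = 0.820).

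COX4I1, the largest nuclear-encoded subunit in its common form, had 159, 102, 133, 144 and 57.8 CPM with stretch medium, against 124, 141, 132, 118 and 129.8 CPM with static medium. Stretch 2 was the highest library and stretch 10 the lowest, so the stretch range enclosed the static one. The log2 fold change was -0.11 ± 0.19 and turned to 0.059 without stretch 10. COX6A1, the form found outside muscle, had 196, 223, 149, 247 and 147 CPM with stretch medium, against 160.4, 176, 128, 229 and 272 CPM with static medium (log2 fold change -0.0038 ± 0.19). COX8A had 69.4, 75.5, 102, 80.3 and 70.4 CPM with stretch medium, against 80.3, 84.4, 96.0, 83.5 and 83.3 CPM with static medium (log2 fold change -0.10 ± 0.12). COX6A1 shares 49.4% of its 31-base words with other genes, and COX4I1 overlaps EMC8 on the opposite strand. The static range of COX6A1 enclosed its stretch range, and stretch 6 was the highest library for COX8A.

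COX7A1, the heart and muscle form, had 10.4, 5.19, 10.4, 8.25 and 6.82 CPM with stretch medium, against 8.78, 9.18, 6.90, 9.77 and 10.4 CPM with static medium. COX7A2, the common form, had only 5 to 21 counts per library, at 1.36, 0.960, 1.79, 1.81 and 1.20 CPM with stretch medium, against 1.54, 2.47, 2.45, 1.82 and 1.46 CPM with static medium. COX7A2L, which links complexes III and IV into supercomplexes, had 161, 193, 181, 209 and 179.8 CPM with stretch medium, against 179.9, 191, 163, 189 and 185 CPM with static medium. The groups overlapped in all 3, with log2 fold changes of -0.13 ± 0.20 for COX7A1, -0.43 ± 0.30 for COX7A2 and 0.026 ± 0.10 for COX7A2L. COX6B2, a testis form that was not tested, had 3 to 23 counts per library. It was at 0.678, 0.960, 0.961, 1.55 and 1.81 CPM with stretch medium, against 1.32, 2.71, 0.767, 0.521 and 0.486 CPM with static medium. Of 5 markers of skeletal or heart muscle, 2 were in the table, summing to 0.384 to 2.06 CPM with stretch medium and 0.614 to 1.41 CPM with static medium.

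Complex V had 11 of its 18 genes below 0 and the median log2 fold change was -0.033. At an unadjusted p under 0.05, 3 were lower (16.7%, all genes 8.37%): ATP5F1C, ATP5MC3 and ATP5MF. Groups by role were set after seeing the data and were not tested against each other. The 5 genes of the F1 head and central stalk had a median of 0.028, and the 3 of the c ring -0.11. The 4 of the peripheral stalk had a median of -0.13 and the 6 membrane and small subunits -0.087. In the fit of all libraries ATP5F1C alone of the 5 head and stalk genes lay below 0, while ATP5F1A, ATP5F1B and ATP5F1E crossed 0 when single libraries were left out.

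ATP5F1C encodes subunit gamma, the shaft that turns inside the head (ENSG00000165629; chr10:7788129-7807815). It had 241, 291, 215, 236 and 237 CPM with stretch medium, against 320.1, 258, 357, 339 and 347 CPM with static medium. Stretch 2, 6, 8 and 10 were below every static library, and stretch 4 was above static 3. Means were 244 ± 28.3 CPM with stretch medium and 324 ± 39.6 CPM with static medium (SD, n = 5 each), a log2 fold change of -0.41 ± 0.11 (95% interval -0.65 to -0.17). The adjusted p was 0.128 in edgeR's quasi-likelihood test and 0.0345 in DESeq2, so the call depended on the test. Over the 19 alternatives run for this gene, adjusted p ran from 0.0345 to 0.254, and DESeq2 alone gave one under 0.05.

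The level of ATP5F1C was also set against the subunits it turns in, alpha (ATP5F1A) and beta (ATP5F1B). The log2 ratio of ATP5F1C to ATP5F1A was 0.077 ± 0.21 with stretch medium and 0.50 ± 0.27 with static medium (SD, n = 5 each). An exact permutation test gave a two-sided p of 0.0317, or 0.175 after adjustment over 6 ratios. The log2 ratio to ATP5F1B was -1.64 ± 0.34 with stretch medium and -1.19 ± 0.36 with static medium (exact permutation p = 0.0635, adjusted 0.175). Neither difference passed after adjustment, and 0.00794 is the smallest p that 252 arrangements allow. ATP5F1C had the smallest edgeR p of the tested subunit genes in these same libraries. The adjustment over 6 ratios does not cover that, so these p-values are not a separate test of its change. The groups overlapped in both ratios, with 4 of 5 stretch libraries below every static library in each.

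The c ring genes were all below 0, although ATP5MC1 changed sign when single libraries were left out, and 1 of the 3 had an unadjusted p under 0.05. ATP5MC3 (ENSG00000154518; chr2:175176258-175184607) had 236, 262, 246, 264 and 218 CPM with stretch medium, against 293, 237, 310.2, 376 and 308 CPM with static medium. ATP5MC1 (ENSG00000159199; chr17:48892765-48895871) had 32.1, 37.8, 51.2, 47.3 and 52.2 CPM with stretch medium, against 42.3, 43.7, 48.9, 44.6 and 45.4 CPM with static medium. ATP5MC2 (ENSG00000135390; chr12:53632726-53677408) had 478, 488, 529, 548 and 509 CPM with stretch medium, against 492, 523, 552, 616 and 577 CPM with static medium. For ATP5MC3, static 1, 5, 7 and 9 were above all stretch libraries and static 3 was the exception, while ATP5MC1 and ATP5MC2 overlapped more widely. Log2 fold changes were -0.31 ± 0.12 for ATP5MC3 (adjusted p = 0.207), -0.024 ± 0.14 for ATP5MC1 (adjusted p = 0.948) and -0.11 ± 0.094 for ATP5MC2 (adjusted p = 0.579).

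Whether the 3 c subunit genes differed in their response was tested on their ratios. The log2 ratio of ATP5MC3 to ATP5MC2 was -1.06 ± 0.12 with stretch medium and -0.87 ± 0.17 with static medium (SD, n = 5 each). An exact permutation test gave a two-sided p of 0.0873, or 0.175 after the same adjustment. The ratio of ATP5MC3 to ATP5MC1 was 2.49 ± 0.34 with stretch medium and 2.74 ± 0.23 with static medium (exact permutation p = 0.222, adjusted 0.333). No ratio among the 3 separated the media.

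ATP5MF and ATP5MG, subunits f and g, lie in the membrane where ATP synthase dimers meet. ATP5MF (ENSG00000241468; chr7:99448475-99466331) had 321, 458, 440.2, 464 and 461 CPM with stretch medium, against 600.4, 500.4, 487, 592 and 411 CPM with static medium. ATP5MG had 859.5, 1118, 948, 1029.8 and 1189 CPM with stretch medium, against 1164, 1099, 1009.5, 1364 and 995 CPM with static medium. Stretch 2 was the lowest library for both genes, and the groups overlapped. Log2 fold changes were -0.27 ± 0.13 for ATP5MF (adjusted p = 0.300) and -0.13 ± 0.11 for ATP5MG (adjusted p = 0.597). ATP5MF overlaps the neighbouring annotations PTCD1 and CPSF4.

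Genes with and without the searched motifs were set side by side, with no test. The 13 tested genes with an NRF1 motif had a median log2 fold change of -0.043, against -0.099 for the 50 without it. The 16 with an ETS motif had a median of -0.081, against -0.062 for the 47 without it. Among the printed promoters, ATP5F1C, UQCRFS1 and UQCRH belong to genes below 0 and SDHA, SDHB and COX6B1 to genes above 0. Across the 79 genes the log2 fold change had a Spearman correlation of 0.19 with transcript length and 0.12 with GC content, given as a description, since the genes share the same libraries.

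Lists of genes that work with the subunits were counted in the same fit, and none of their genes had an adjusted p under 0.05. Over all genes tested, 8.37% were lower and 8.08% higher at an unadjusted p under 0.05. Among 18 tested assembly factors of complex I, 9 lay below 0 and 1 was lower at an unadjusted p under 0.05, NUBPL, which delivers iron-sulfur clusters (log2 fold change -0.59 ± 0.22, adjusted p = 0.211). The second smallest p was that of ACAD9 (0.23 ± 0.12). Complex II had 4 assembly factors, with SDHAF4 at -0.44 ± 0.22 and SDHAF3 at -0.044 ± 0.13, and complex III had 6, with UQCC1 at 0.16 ± 0.13 and UQCC3 at -0.15 ± 0.18, and in neither list did any have an unadjusted p under 0.05. Of 22 complex IV factors 16 lay below 0 (median log2 fold change -0.12) and 1 was lower at that level, COA6 (-0.57 ± 0.25, adjusted p = 0.271), followed by COA5 (-0.27 ± 0.16). Of 7 complex V factors 1 was lower, TMEM242 (-0.49 ± 0.21, adjusted p = 0.266), and ATP5IF1, the inhibitor of ATP hydrolysis, was at -0.30 ± 0.16 (adjusted p = 0.348).

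Factors of supercomplexes and cytochrome c numbered 9 tested, of which 1 was lower at an unadjusted p under 0.05 (11.1%, all genes 8.37%). This was STOML2, an inner membrane scaffold that binds prohibitins and cardiolipin, with 17.4, 19.2, 18.7, 22.3 and 18.3 CPM with stretch medium, against 22.6, 28.6, 33.4, 33.0 and 28.2 CPM with static medium. All stretch libraries were below all static ones, as in 218 of all 10968 genes (1.99%). The log2 fold change was -0.60 ± 0.14 (adjusted p = 0.0928, and 0.0098 in DESeq2). By DESeq2, 2.84% of all genes with an adjusted p had one under 0.05. Its partner PHB2 was at -0.23 ± 0.11 (adjusted p = 0.314).

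Regulators of the nuclear genes, 21 tested, had 3 lower and 3 higher at an unadjusted p under 0.05 and a median log2 fold change of 0.046. HCFC1, a coactivator that works with GABPA and with PGC-1 family proteins, had 118, 96.4, 134, 92.9 and 103 CPM with stretch medium, against 75.7, 78.4, 90.5, 79.2 and 92.5 CPM with static medium. Every stretch library was above every static one, as in 191 of all 10968 genes (1.74%), the closest being stretch 8 and static 9. The log2 fold change was 0.39 ± 0.12 (adjusted p = 0.141, and 0.0608 in DESeq2). NRIP1, a corepressor of oxidative metabolism genes, was at 0.52 ± 0.17 (adjusted p = 0.166).

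Enzymes of the citric acid cycle and pyruvate dehydrogenase, 23 tested, had 16 below 0 and a median log2 fold change of -0.13. At an unadjusted p under 0.05, 4 were lower (17.4%, all genes 8.37%) and 1 higher (4.35%, all genes 8.08%). IDH3G, a regulatory subunit of NAD-dependent isocitrate dehydrogenase, had 236, 201, 266, 216 and 287 CPM with stretch medium, against 172, 206, 172, 166 and 195 CPM with static medium. Stretch 4 was below static 3, and the other stretch libraries were above all static ones. Its log2 fold change was 0.41 ± 0.11 (adjusted p = 0.129, and 0.0362 in DESeq2). Citrate synthase (CS) was at -0.35 ± 0.13 (adjusted p = 0.193), opposite in sign.

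Of 16 genes of coenzyme Q synthesis and electron entry, 8 lay below 0. At an unadjusted p under 0.05, 1 was lower (6.25%, all genes 8.37%). This was GPD2, the mitochondrial glycerol 3-phosphate dehydrogenase (log2 fold change -0.26 ± 0.12, adjusted p = 0.286), followed by DHODH of pyrimidine synthesis (0.31 ± 0.17). Of 16 other mitochondrial membrane genes 7 lay below 0 and the median log2 fold change was 0.035. At an unadjusted p under 0.05, 3 were lower (18.75%, all genes 8.37%) and 1 higher (6.25%, all genes 8.08%). TIMM44, which anchors the import motor, averaged 26.0 ± 5.63 CPM with stretch medium and 36.8 ± 3.21 CPM with static medium (log2 fold change -0.50 ± 0.15, adjusted p = 0.139, and 0.0495 in DESeq2). MFN2, of mitochondrial fusion, averaged 115 ± 16.2 CPM with stretch medium and 94.4 ± 14.5 CPM with static medium (log2 fold change 0.29 ± 0.13, adjusted p = 0.276; SD, n = 5 each).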

How the data were processed

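Total RNA of 10 MRC5 libraries was extracted with Trizol and amplified with the Ion AmpliSeq Transcriptome kit, per the labels' protocols, so each gene is read through a short amplicon and levels are not compared between genes. The authors deposited unscaled whole-number counts in 1 table of Ensembl genes. Per the submitters' processing notes, fastp 0.20.1, Salmon 1.9 and hg38/GRCh38 were used; each tool's role, the annotation and strand use are not named in the sources used. No molecular identifiers are named, so floors cover counting error only. Genes in fewer than 5 libraries were not analysed here.

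Testing used edgeR 4.0.16 in R 4.3.3 (filterByExpr with a minimum count of 10 and total of 15, TMM scaling, quasi-likelihood test of stretch minus static, Benjamini-Hochberg adjustment over 10968 genes, threshold 0.05). DESeq2 1.42.0 and limma-voom (limma 3.58.1) were alternatives, beside other scalings, filters, thinning, merged pseudogenes and each library left out. Log2 CPM used a prior count of 2. Ratios were compared by exact two-sided permutation over 252 arrangements. The fit was tested on simulated data. The members and lists were chosen with earlier results of these data known, and the role groups within complexes were set after seeing the data. Genes named with values were, per complex, the 3 smallest p-values and the largest mean CPM, up to 12 genes with an unadjusted p under 0.05, isoform sets, and the 2 smallest p-values of each other list. Gene positions are from GENCODE 29 (GRCh38), and 31-base words from its whole transcripts. Amplicon positions were not used here, so shared words and overlapping genes do not show whether the counted reads are ambiguous.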

Additional observations from a re-analysis of the deposited data

Results flagged for a closer look

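In 78 groups of 5 libraries (33 named genes and 6 means over complexes, in each medium), 5 had a library whose gap to its nearest neighbour over the group's range exceeded Dixon's 95% critical value; chance flags about 1 in 20. ATP5MF was at 320.8 CPM in stretch 2, below the other stretch libraries. SDHB was at 52.3 CPM in stretch 6, above the other stretch libraries, and its log2 fold change was 0.063 without that library. NDUFA2, at 27.5 CPM, and NDUFAB1, at 392 CPM, stood above the other static libraries in static 7. COX8A, at 96.0 CPM, did so in static 5.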

How the results depend on the processing

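The number of respiratory chain genes with an adjusted p under 0.05 was 0 under every setting run except DESeq2, which called 1, ATP5F1C, at a log2 fold change of -0.41. Over all genes, 0 were called in edgeR, against 275 by DESeq2, 1 by limma-voom and 61 at an adjusted p under 0.1; leaving out each library gave 0 to 39, with 39 without stretch 4, 2 without stretch 6 and 1 without stretch 10. Leaving out libraries gave 5 to 12 genes lower at an unadjusted p under 0.05 (6.33% to 15.2%, all genes 6.26% to 9.67%) and 1 to 5 higher (1.27% to 6.33%, all genes 5.86% to 9.10%), and a median of -0.10 to -0.042. Of 32 tested named genes, 27 kept their sign in all settings. The others were ATP5MC1 (-0.090 to 0.068 over the left-out libraries), COX4I1 (-0.24 to 0.059), COX7A2L (-0.022 to 0.071), CYCS (-0.014 to 0.23) and COX6A1 (-0.12 to 0.15, with 0.00042 without a filter and 0.015 by limma-voom); the cause was not tested. No paired analysis was run, because the groups share no replicate number and the labels name no pairs. Whether static and stretch libraries were prepared in pairs is not known. A biological coefficient of variation of 17.5% and 5 libraries per group limit the precision, with a median standard error of 0.130 on the log2 scale.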

Other observations

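SDHAP4, an annotated pseudogene of SDHA outside the set described, was at 28.9 ± 2.13 CPM with stretch medium and 21.2 ± 6.35 CPM with static medium (SD, n = 5 each). Every stretch library was above every static one, as in 191 of all 10968 genes (1.74%). The log2 fold change of SDHAP4 was 0.46 ± 0.19 (edgeR, adjusted p = 0.250). SDHAP1, another copy, was at 0.011 ± 0.15. With the counts of its copies added, SDHA was at a log2 fold change of 0.19. Of the 13 subunits encoded in mitochondrial DNA, 9 were in the table and together had 226 counts over the 10 libraries, with 0 to 13 in any library. None passed the filter on low counts, so they were not tested, and whether the kit reads them was not examined.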
